A study of Mus musculus with 36 samples.

Results

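The genes described here are the molecular chaperones of the heat shock, DnaJ and CCT families, followed in mouse embryos at the 8-cell (8C) and the 2-cell (2C) stage. They were chosen by symbol alone: every gene of the deposited table whose symbol begins with Hspa, Hspb, Hspd, Hspe, Hsph or Hsp90, with Dnaja, Dnajb or Dnajc, or with Cct2 to Cct8, and Tcp1. The rule found 82 of 23845 genes. By class they were 13 HSP70 genes, 1 HSP110 gene, 3 HSP90 genes, the pair Hspd1 and Hspe1, 8 small heat shock protein genes, 4 DnaJ A, 13 DnaJ B, 28 DnaJ C and 10 CCT genes.

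Chaperones bind unfolded protein so that it can fold, cross a membrane or be degraded. HSP70 proteins do so in cycles of ATP hydrolysis, which DnaJ proteins start and nucleotide exchange factors such as the HSP110 proteins end, whereas HSP90 proteins act on clients that are nearly folded and the ring-shaped CCT complex encloses newly made actin and tubulin. In the mouse, the inducible HSP70 genes Hspa1a and Hspa1b are known among the first genes that the embryo itself transcribes, and Hsf1, the factor that switches on heat shock genes, is supplied by the oocyte.

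RNA was sequenced in 36 libraries, each a pool of 4 to 5 embryos, with cDNA made by SMART-seq v4, a kit for very small amounts of RNA. At the 8C stage 7 libraries carried the label VP64, 6 Ctrl and 6 NI, and at the 2C stage 6 carried KRAB, 7 Ctrl and 4 NI. VP64 and KRAB are names of a transcription-activating and a transcription-repressing domain; the labels spell out neither what carried them nor what Ctrl and NI stand for, and they give no strain. The labels name no separate animals, cultures or days, and every p-value given here therefore reflects only how pools differ from each other, which may be technical.

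Library totals lay between 1043740 and 13583527 counts. VP64 8C replicate 7, Ctrl 8C replicate 6 and Ctrl 2C replicate 6 stood apart, with 11343, 9672 and 12174 genes detected, the fewest of their groups. Libraries also differed in the share of counts on short genes, those with under 1000 bases of exon. That share was 15.1% and 17.4% in VP64 8C replicates 6 and 7, 21.3% in Ctrl 8C replicate 6, 15.7% and 18.4% in NI 8C replicates 5 and 6, 12.7% and 14.6% in KRAB 2C replicates 3 and 5, 14% in Ctrl 2C replicate 6 and 16.3% and 15.1% in NI 2C replicates 1 and 3, where the medians of those groups lay between 3.95% and 11.6%. The 2C libraries of each treatment formed sets over the 13158 genes tested in all libraries. In Ctrl 2C, Pearson's r of log2(CPM + 1) was 0.877 to 0.97 among replicates 1, 3, 5 and 7. It was 0.765 to 0.928 among replicates 2, 4 and 6, and 0.589 to 0.796 between the sets. In KRAB 2C it was 0.919 to 0.937 among replicates 2, 4 and 6 and 0.939 between replicates 3 and 5. Between these KRAB sets it was 0.809 to 0.841, and no KRAB set was left out below. In NI 2C it was 0.931 between replicates 2 and 4, 0.843 between replicates 1 and 3, and 0.714 to 0.8 between the pairs. These r describe genes of the same libraries and are no test. Counts of calls that rest on Ctrl 2C libraries are therefore also given without each set. The sets were chosen by likeness over all genes, which narrows the spread behind calls made without one of them. Summed markers of oocytes separated the stages, with 62.4 to 235 CPM (counts scaled by library size and TMM) in NI 8C and 4964 to 45230 CPM in NI 2C libraries, and 0 of 10 markers at 0. Those of the 2-cell stage overlapped, with 400 to 1135 CPM in NI 8C and 953 to 2247 CPM in NI 2C libraries. In Ctrl they had 471 to 2368 CPM at 8C and 1155 to 2234 CPM at 2C. Those of the 8-cell stage overlapped too, with 1712 to 3908 CPM in NI 8C and 338 to 2654 CPM in NI 2C libraries. In Ctrl these had 1629 to 4418 CPM at 8C and 207 to 3369 CPM at 2C. Markers of cumulus and granulosa cells summed to 0.402 to 1.53 CPM in NI 8C libraries, with 10 of 15 markers at 0, and to 15.8 to 91.6 CPM in NI 2C libraries, with 4 of 15 at 0. One KRAB 2C library reached 375 CPM of them and 1 Ctrl 2C library 187 CPM, where the group medians were 29.4 and 15.8 CPM, with 3 of 15 at 0 in each group. The part of these markers in the differences between stages and treatments was not tested.

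A few of the chaperone promoters hold the DNA words by which heat shock factors and the stress response of the endoplasmic reticulum (ER) are known to act, and these are shown so that the values of the genes that share them can be read together. RefSeq promoters (GRCm38.p6, 250 bases before to 50 after a start) were matched by symbol for 67 of the 82 genes. The others, for example Hspa8, Hsp90aa1, Hsp90ab1 and Cct4, had no entry and were not searched. A heat shock element of 3 alternating units, GAANNTTCNNGAA read on both strands, was found in 4 of the 67, Hspe1, Hspd1, Dnajb6 and Hsph1, and in 0.603% of all 32851 promoters. Counted by gene, as the 4 of 67 are, the share was 0.662% of all 27025 genes with a promoter. Capitals mark the fixed letters of the motif.
Hspe1, chr1:55088053-55088082, + strand: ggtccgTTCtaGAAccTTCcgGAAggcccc
Hspd1, chr1:55088053-55088082, - strand: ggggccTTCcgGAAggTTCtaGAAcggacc
Dnajb6, chr5:29735844-29735872, + strand: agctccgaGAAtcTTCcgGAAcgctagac
Hsph1, chr5:149636280-149636308, - strand: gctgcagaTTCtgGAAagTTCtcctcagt
Hspe1 and Hspd1 lie head to head and share the same 18 bases, with 2 overlapping matches. The matches begin 89 bases before the RefSeq start of Hspe1 and, on the other strand, 144 bases before that of Hspd1. In Hsph1 the match began 15 bases after the start. The ER stress element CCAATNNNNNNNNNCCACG, on both strands, was found in 3 of the 67 promoters and in 0.119% of all. Counted by gene, the share was 0.137% of all 27025. The 3 genes, Hspa5, Dnajc3 and Hsp90b1, encode chaperones of the ER.
Hspa5, chr2:34772020-34772048, + strand: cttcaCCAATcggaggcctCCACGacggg
Dnajc3, chr14:118937807-118937865, + strand: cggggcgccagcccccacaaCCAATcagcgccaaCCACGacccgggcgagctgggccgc
Hsp90b1, chr10:86705513-86705676, - strand: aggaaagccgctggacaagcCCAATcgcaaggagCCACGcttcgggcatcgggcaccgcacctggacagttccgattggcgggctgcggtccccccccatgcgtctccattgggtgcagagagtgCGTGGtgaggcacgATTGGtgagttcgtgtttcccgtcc
Hsp90b1 held 2 matches, one on each strand. A match describes letters and says nothing of binding.

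The chaperone genes held a larger share of the counts at the 8C stage. CPM give shares of a library and not amounts of RNA per embryo. The 82 genes summed to 23303 to 61734 CPM in Ctrl 8C and 5529 to 12736 CPM in Ctrl 2C libraries, and to 23660 to 47060 CPM in NI 8C and 5365 to 9998 CPM in NI 2C libraries, so the stages did not overlap in either treatment. In libraries of whole embryos, fewer cells of a type and less RNA per cell cannot be told apart. Of the 71 genes that passed the filter on low counts, 24 rose and 13 fell at 8C against 2C in NI embryos, by edgeR's quasi-likelihood test at a Benjamini-Hochberg adjusted p under 0.05. These are 33.8% and 18.3%, where 18.5% of all 13158 genes tested rose and 31.4% fell. In Ctrl embryos 23 rose and 19 fell, 32.4% and 26.8%, against 22.5% and 39% of all genes. The median log2 fold change was 0.19 in NI and 0.18 in Ctrl, beside -0.47 and -0.51 over all genes tested. These values over all genes depend on the libraries fitted. With only the NI libraries 2494 of 10565 genes rose and 2597 fell, with a median of 0.087. With only the Ctrl libraries the median was -0.44. The libraries of the stages did not overlap for 27 of the 71 genes in NI and 21 in Ctrl, 38% and 29.6%, beside 33.4% and 24.4% of all genes tested. By direction these were 17 higher and 10 lower in NI, 23.9% and 14.1% beside 12.8% and 20.7% of all genes, and 12 higher and 9 lower in Ctrl, 16.9% and 12.7% beside 7.11% and 17.3%. The 20 genes that rose in both treatments were 83.3% of the rises in NI and 87% of those in Ctrl, and the 10 that fell in both were 76.9% and 52.6% of the falls. NI and Ctrl share no library, but 1 model fitted both. The share of calls common to both treatments was not computed over all genes, so these shares do not set chaperones apart from other genes. Without Ctrl 2C replicates 2, 4 and 6, edgeR called 45 genes in Ctrl, having lost 3 of the 42 calls (Cct8, Hspa1l and Hspd1). It gained 6 members, and called 8763 of all 13001 genes tested. Without replicates 1, 3, 5 and 7 it called 34, having lost 12 (Cct3, Cct6b, Dnaja3, Dnajb1, Dnajb11, Dnajc5, Dnajc11, Dnajc14, Dnajc21, Hspa4, Hspa13 and Hspb11). It gained 4 members, and called 5770 of all 12937 genes tested. With all libraries 2957 of 13158 genes rose in Ctrl and 5135 fell, so the number of calls over all genes changed as well.

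**Figure D1:**
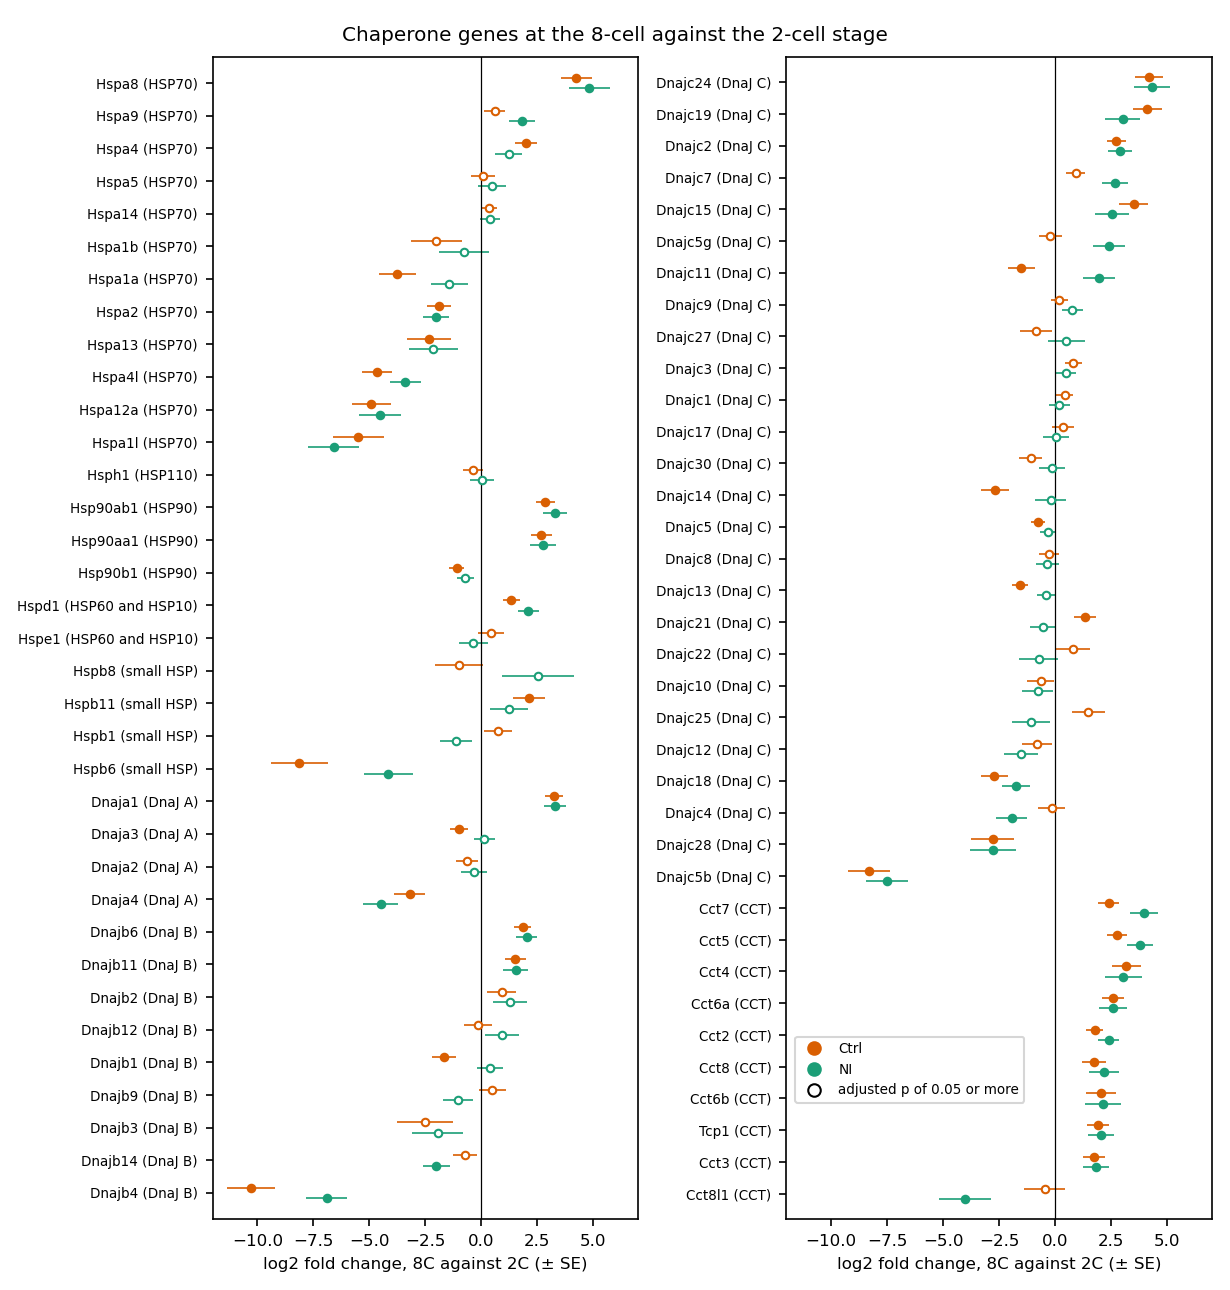
Log2 fold change, 8C against 2C, of each of the 71 chaperone genes that passed the filter, in NI and Ctrl embryos, with its standard error; filled points have an adjusted p under 0.05. The 8 core CCT subunits all lie to the right of 0, while HSP70 genes reach from 4.82 (Hspa8) to -6.60 (Hspa1l) in NI.

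Among the HSP70 genes, Hspa8 (chr9:40800984-40810087, GRCm38), the constitutive HSP70 of the cytosol, carried the gain. It had 871 to 16226 CPM (median 4176) in NI 8C libraries and 84.9, 376, 43.9 and 316 CPM in the 4 NI 2C libraries. It had 2618 to 22298 CPM (median 5910.4) in Ctrl 8C libraries and 54.9 to 1201 CPM (median 239) in Ctrl 2C libraries. Within each treatment every 8C library lay above every 2C library, although the 8C libraries spread widely among themselves. The log2 fold change was 4.82 ± 0.90 (SE) in NI and 4.24 ± 0.69 in Ctrl (edgeR adjusted p = 3.88e-05 and 2.33e-06). Per kilobase of exon, Hspa8 made up 83.4 ± 6.99% of all HSP70 transcript in NI 8C libraries (SD, n = 6) and 25.8 ± 10.8% in NI 2C libraries (SD, n = 4). In Ctrl the share was 85.5 ± 6.44% at 8C (SD, n = 6) and 29.0 ± 14.6% at 2C (SD, n = 7). Of its 31-base words 44.8% occur in other annotated genes, mostly in Gm15459, but 1.54% in other genes of the deposited table. How reads of the remaining shared words were assigned is not known.

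**Figure D2:**
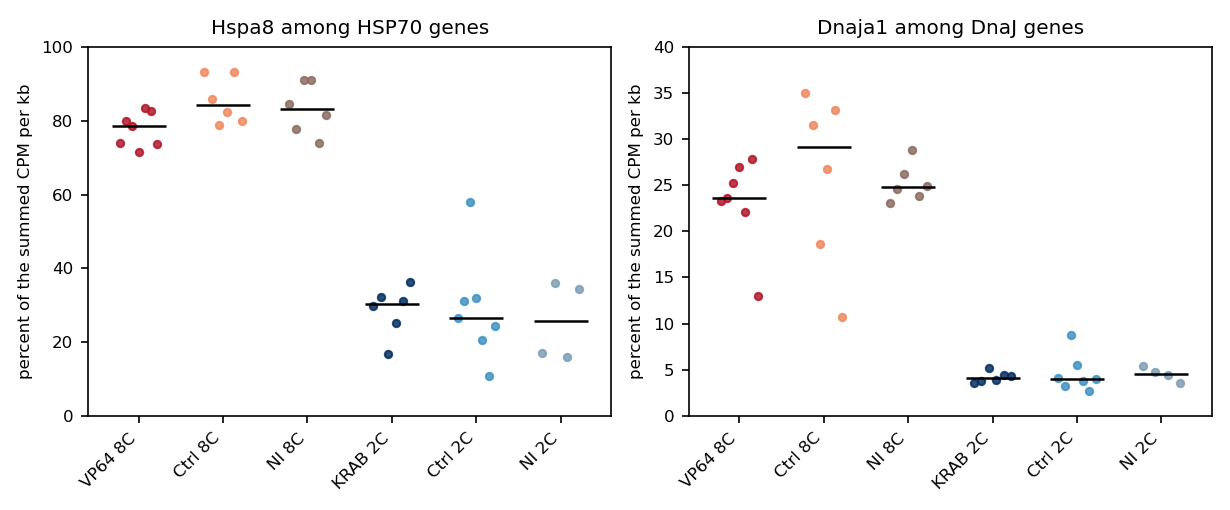
Share of Hspa8 in the summed HSP70 level and of Dnaja1 in the summed DnaJ level, in CPM per kilobase of exon, in each library (points) with group medians (lines). Hspa8 held 71.5% to 93.3% in the 8C libraries and 10.7% to 57.9% in the 2C libraries.

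Of the 12 HSP70 genes tested, 2 were called higher and 4 lower at 8C in NI embryos, and 2 higher and 6 lower in Ctrl embryos. The falls are 33.3% and 50% of the class, where 31.4% and 39% of all genes fell. Hspa9, the HSP70 of mitochondria, rose in NI with 83.1 to 799 CPM at 8C and 51.1, 114, 115 and 137 CPM at 2C (1.82 ± 0.58 log2, edgeR adjusted p = 0.00867). These groups overlapped, and without NI 2C replicates 1 and 3 the gene did not pass (1.66, edgeR adjusted p = 0.0816). In Ctrl it did not pass (0.60 ± 0.46, edgeR adjusted p = 0.264). Hspa4, an exchange factor, rose in Ctrl with 71.7 to 339 CPM at 8C and 8.26 to 99.6 CPM at 2C (1.99 ± 0.50, edgeR adjusted p = 0.000856). Its close relative Hspa4l fell in both treatments. It had 0.611 to 2.41 CPM in NI 8C libraries and 7.38, 15.1, 7.19 and 18.8 CPM in NI 2C libraries, without overlap, and the log2 fold change was -3.39 ± 0.69 in NI and -4.66 ± 0.68 in Ctrl (edgeR adjusted p = 0.000121 and 3.25e-07). Hspa2, best known from male germ cells, had 2.75 to 12.1 CPM in NI 8C and 43.1, 46.5, 19.4 and 20.5 CPM in NI 2C libraries, again without overlap (-2.02 ± 0.57, edgeR adjusted p = 0.00358). Hspa12a, a distant relative, fell in NI (-4.55 ± 0.94) and in Ctrl (-4.91 ± 0.87), where it had 0 to 1.13 CPM at 8C and 2.14 to 17.2 CPM at 2C (edgeR adjusted p = 0.000136 and 8.25e-06). Hspa1l had 0 counts in the NI 8C and in the Ctrl 8C libraries, against 44 counts over the NI 2C and 61 over the Ctrl 2C libraries. Against a floor of 3 counts per group this was at least 36.8-fold and 11.2-fold lower. Hspa14, which works on the ribosome, had 76.0 to 325 CPM in NI 8C and 168, 224, 38.8 and 159.7 CPM in NI 2C libraries, with overlap (0.39 ± 0.44, edgeR adjusted p = 0.465).

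The inducible pair Hspa1a and Hspa1b was low at 8C. Hspa1a had 0 to 6.03 CPM (median 0.747) in Ctrl 8C and 8.83 to 41.7 CPM (median 28) in Ctrl 2C libraries, without overlap, and a log2 fold change of -3.75 ± 0.85 (edgeR adjusted p = 0.000238). It had 0.611 to 14.3 CPM in NI 8C and 3.69, 35.5, 8.63 and 14.5 CPM in NI 2C libraries, which overlapped (-1.43 ± 0.83, edgeR adjusted p = 0.15). Hspa1b did not pass in either treatment and reached at most 8.58 CPM, in a KRAB 2C library. The copies lie close together on chromosome 17 and share 63.8% of the words of Hspa1a and 67.7% of those of Hspa1b, so the split between them is uncertain. Their sum was 2.33 ± 2.88 CPM in Ctrl 8C libraries (SD, n = 6) and 28.4 ± 12.9 CPM in Ctrl 2C libraries (SD, n = 7).

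Both cytosolic HSP90 genes rose. Hsp90ab1 (chr17:45567775-45573271), the constitutive form, had 4028 to 8351 CPM (median 5770.2) in NI 8C and 699.7, 444, 953 and 447 CPM in NI 2C libraries. Hsp90aa1 (chr12:110690605-110702728), the heat-inducible form, had 1804 to 11057 CPM (median 3894) in NI 8C and 772, 555, 903 and 639.6 CPM in NI 2C libraries. The stages overlapped for neither gene, in NI or in Ctrl. The log2 fold change of Hsp90ab1 was 3.27 ± 0.53 in NI and 2.85 ± 0.42 in Ctrl (edgeR adjusted p = 4.97e-06 and 3.87e-07). That of Hsp90aa1 was 2.76 ± 0.58 in NI and 2.67 ± 0.47 in Ctrl (edgeR adjusted p = 0.000179 and 7.17e-06). Of the words of Hsp90aa1 51.5% occur elsewhere, mostly in Gm12346, but 0.2% in other genes of the deposited table. Per kilobase the ratio of Hsp90ab1 to Hsp90aa1 was 2.05 ± 0.752 in NI 8C libraries (SD, n = 6) and 1.16 ± 0.205 in NI 2C libraries (SD, n = 4), and the ranges overlapped. Hsp90b1, the HSP90 of the ER, had 36.6 to 78.5 CPM in Ctrl 8C and 52.8 to 166 CPM in Ctrl 2C libraries and fell there (-1.11 ± 0.33, edgeR adjusted p = 0.00434). In NI it did not pass (-0.71 ± 0.38, edgeR adjusted p = 0.111).

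**Figure D3:**
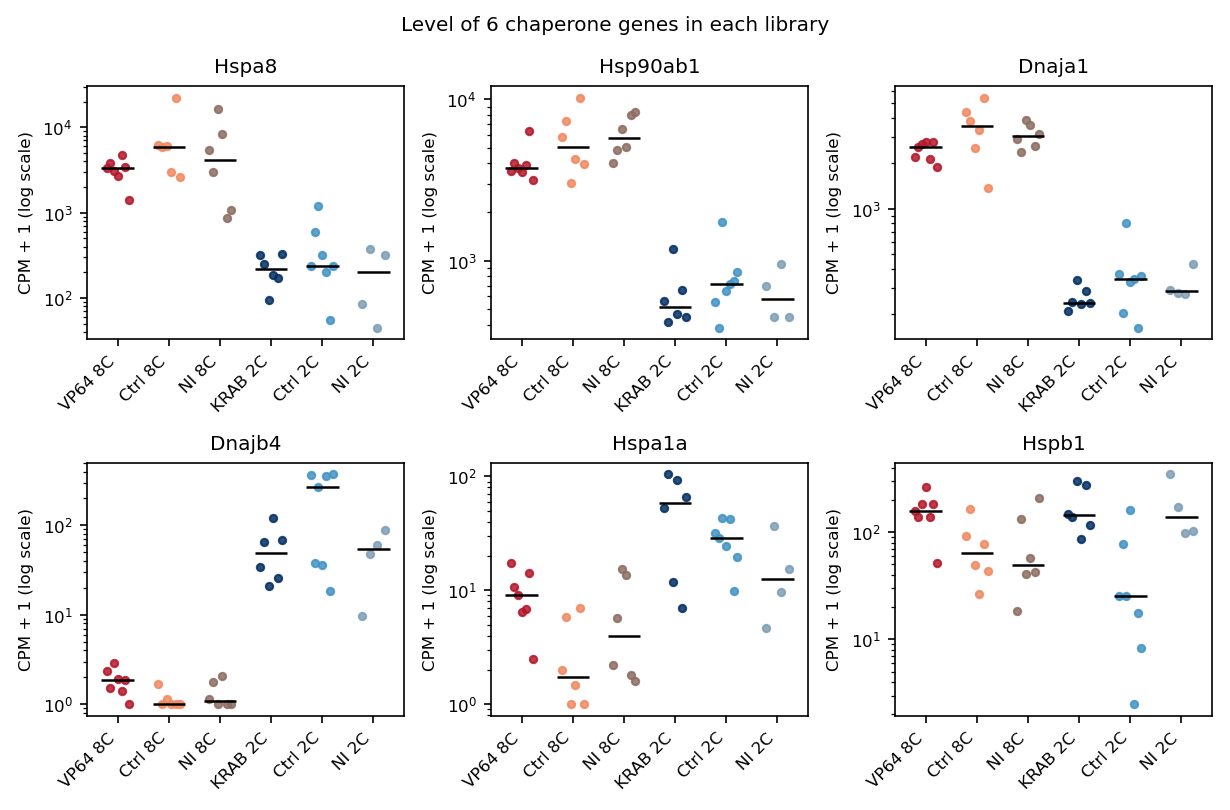
Levels of 6 chaperone genes in every library (points, CPM + 1 on a log axis) with group medians (lines), 8C groups left of 2C groups. Hspa8, Hsp90ab1 and Dnaja1 lie higher at 8C and Dnajb4 lies higher at 2C.

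The CCT complex moved as a class. Its 8 core subunits, which together build each ring, all rose in both treatments. Their mean level was 271 ± 157 CPM per kilobase in NI 8C libraries (SD, n = 6) and 42.5 ± 33.0 in NI 2C libraries (SD, n = 4). In Ctrl it was 299 ± 144 at 8C (SD, n = 6) and 65 ± 28.7 at 2C (SD, n = 7). The subunits' log2 fold changes ran from 1.82 ± 0.60 (Cct3) to 3.95 ± 0.64 (Cct7) in NI and from 1.72 ± 0.53 (Cct8) to 3.18 ± 0.66 (Cct4) in Ctrl. Cct7 (chr6:85451514-85468475) had 384 to 1694 CPM (median 885) in NI 8C and 34.5, 108, 27.3 and 85.3 CPM in NI 2C libraries (edgeR adjusted p = 3.95e-06). Cct5 had 235 to 971 CPM (median 633) in NI 8C and 32.6, 76.8, 12.9 and 57.4 CPM in NI 2C libraries (3.8 ± 0.59, edgeR adjusted p = 1.97e-06). The stages did not overlap for Cct2, Cct5, Cct6a and Cct7 in NI and for Cct2, Cct4, Cct5 and Cct6a in Ctrl. Among the other subunits, Tcp1 had a log2 fold change of 2.04 ± 0.59 in NI and 1.90 ± 0.48 in Ctrl, Cct2 of 2.39 ± 0.47 and 1.77 ± 0.38, and Cct6a of 2.57 ± 0.61 and 2.59 ± 0.50. Cct6b, a paralogue of Cct6a known from testis, rose too, with 6.30 to 41.2 CPM in NI 8C and 4.31, 4.08, 3.59 and 4.79 CPM in NI 2C libraries (2.13 ± 0.81, edgeR adjusted p = 0.0279). Its NI call was lost without any one of 6 libraries. Cct8l1, a Cct8-like gene, fell in NI with 0 to 0.787 CPM at 8C and 4.92, 8.16, 2.16 and 5.45 CPM at 2C (-4.03 ± 1.17, edgeR adjusted p = 0.00432). In Ctrl it did not pass (-0.47 ± 0.93, edgeR adjusted p = 0.677), but without Ctrl 8C replicate 3 it fell (-3.18, edgeR adjusted p = 0.0136).

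The NI 2C libraries stood in pairs for this complex. The mean CCT level was 17.8 and 11.1 CPM per kilobase in NI 2C replicates 1 and 3 and 64.1 and 77.1 in replicates 2 and 4, whose short-gene shares were 5.57% and 3.86%. It was 114 and 82.7 in NI 8C replicates 5 and 6, against 241 to 472 in the other 4. The libraries with large short-gene shares were thus the low ones at both stages; the part of that share was not tested. Without NI 2C replicates 1 and 3, Cct2, Cct5, Cct6a and Cct7 still passed. Tcp1, Cct3, Cct4, Cct6b and Cct8 then did not (edgeR adjusted p = 0.107, 0.191, 0.0617, 0.117 and 0.125). Without NI 8C replicates 5 and 6, Cct6b alone of the CCT genes that rose lost its call. The NI call of the core subunit Cct3 was lost without NI 2C replicate 3 alone (1.47, edgeR adjusted p = 0.0512). In Ctrl no single library ended the call of a core subunit. Cct8 did not pass without Ctrl 2C replicates 2, 4 and 6 (edgeR adjusted p = 0.0554), and Cct3 did not without replicates 1, 3, 5 and 7 (edgeR adjusted p = 0.0957).

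**Figure D4:**
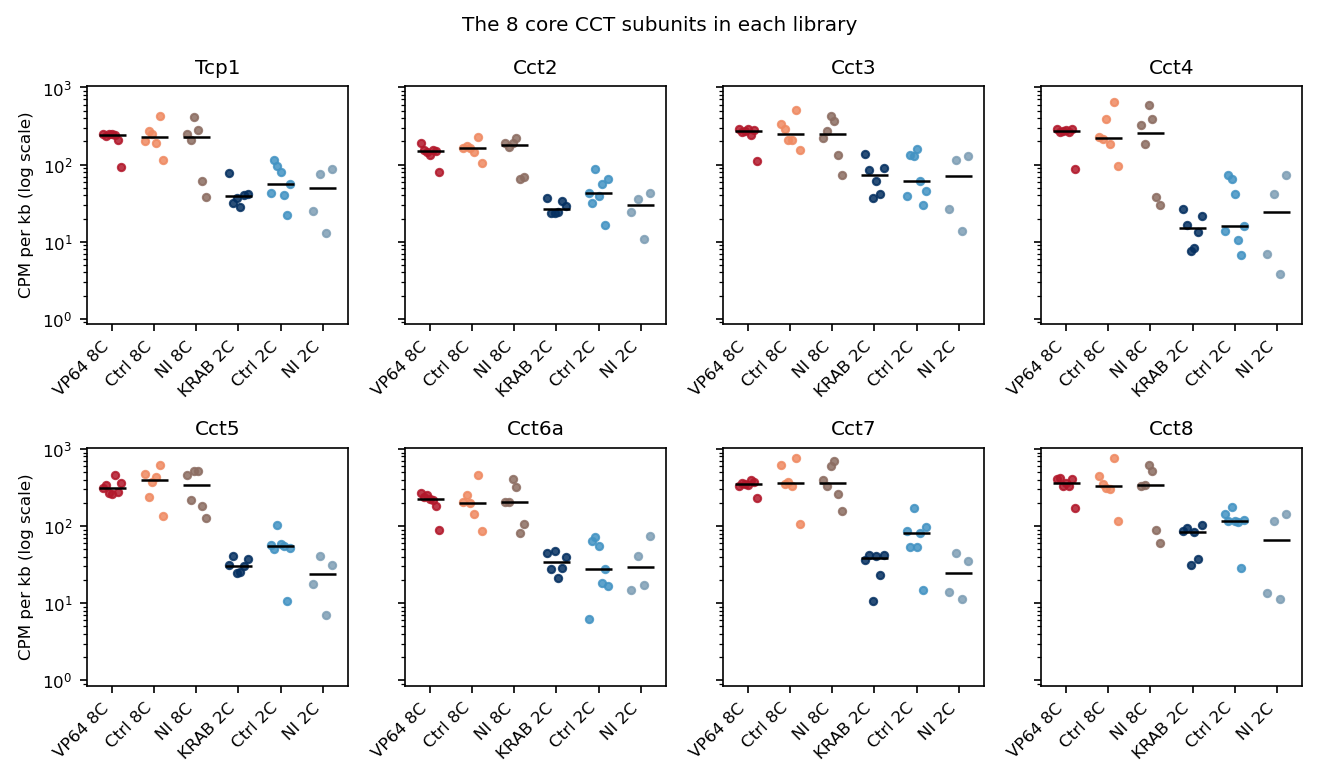
The 8 core CCT subunits in every library (points, CPM per kilobase of exon on a log axis) with group medians (lines). The 8C groups lie above the 2C groups in median, and VP64 8C replicate 7 is the lowest of its group for every subunit but Cct5.

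HSP60 and its lid HSP10 are partners in mitochondria. Hspd1, which encodes HSP60, had 105 to 386 CPM (median 269) in NI 8C and 62.8, 58.8, 43.9 and 71.1 CPM in NI 2C libraries, without overlap. It rose in NI (2.10 ± 0.46, edgeR adjusted p = 0.000277) and in Ctrl (1.33 ± 0.37, edgeR adjusted p = 0.00192), where the stages overlapped and the gene did not pass without Ctrl 2C replicates 2, 4 and 6 (0.78 ± 0.40, edgeR adjusted p = 0.0819). Hspe1, which encodes HSP10, had 39.9 to 658 CPM (median 93.1) in NI 8C and 321, 58.3, 490.3 and 64.9 CPM in NI 2C libraries, with overlap (-0.36 ± 0.66, edgeR adjusted p = 0.672). In Ctrl it did not pass either (0.43 ± 0.57, edgeR adjusted p = 0.529). The sign of the Hspe1 value in NI depended on a few libraries. Without NI 2C replicates 1 and 3 its log2 fold change was 1.63 (edgeR adjusted p = 0.133), beside 2.07 for Hspd1, and without NI 8C replicates 5 and 6 it was -1.44 (edgeR adjusted p = 0.0682), beside 2.56 for Hspd1. Whether the pair differed in its stage change was not tested. Per kilobase the ratio of Hspe1 to Hspd1 was 3.62 and 16.3 in NI 8C replicates 5 and 6 and 0.398 to 1.31 in the other 4. It was 16 and 35 in NI 2C replicates 1 and 3 and 3.10 and 2.85 in replicates 2 and 4. The high ratios stood in the libraries with large short-gene shares, and Hspe1 is itself short, with 774 bases of exon against 2423 in Hspd1. The part of that share in the ratio was not tested. The pair shares the heat shock element printed above, whose distances are from RefSeq starts. In GENCODE vM21 the starts differ and the genes overlap there, where reads cannot be told apart without strand. Which annotation gave the counts is not known. Hsph1, an HSP110 with the same element, had 23.7 to 132 CPM (median 34.4) in NI 8C and 48.0, 50.1, 24.4 and 68.5 CPM in NI 2C libraries and did not pass (0.02 ± 0.54, edgeR adjusted p = 0.977).

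DnaJ proteins, which bring clients to HSP70, changed in both directions. Dnaja1 (chr4:40722150-40737149), a cytosolic partner of Hspa8, had 2368 to 3859 CPM (median 3014) in NI 8C and 289.8, 277, 270.3 and 428 CPM in NI 2C libraries. It had 1375 to 5436 CPM in Ctrl 8C and 162 to 804 CPM in Ctrl 2C libraries. The stages did not overlap, and the log2 fold change was 3.28 ± 0.49 in NI and 3.24 ± 0.39 in Ctrl (edgeR adjusted p = 1.21e-06 and 8.89e-09). Per kilobase Dnaja1 made up 25.2 ± 2.05% of all DnaJ transcript in NI 8C libraries (SD, n = 6) and 4.53 ± 0.795% in NI 2C libraries (SD, n = 4). Dnaja4, another cytosolic A-type protein, went the other way. It had 0.198 to 1.98 CPM in NI 8C and 16, 33.6, 10.8 and 24.6 CPM in NI 2C libraries, without overlap (-4.50 ± 0.78 in NI, -3.20 ± 0.70 in Ctrl, edgeR adjusted p = 1.38e-05 and 0.000165). The overlapping gene Wdr61 shares 43.2% of its words. Dnaja2 did not pass (-0.35 ± 0.58 in NI, -0.65 ± 0.51 in Ctrl), and Dnaja3, of mitochondria, fell in Ctrl (-1.0 ± 0.41, edgeR adjusted p = 0.0334) but not without any one of 5 Ctrl 8C libraries.

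Dnajb4 (chr3:152178511-152210302), a cytosolic B-type DnaJ, was almost absent from 8C libraries. It had 0 to 1.09 CPM in NI 8C and 8.62, 46.5, 59.7 and 88.6 CPM in NI 2C libraries, without overlap (-6.91 ± 0.93, edgeR adjusted p = 1.91e-07). In Ctrl it had 3 counts in all at 8C and 9826 at 2C, which is 1803-fold lower with a 95% counting interval of 616.6 to 8743. Dnajb6 is a suppressor of aggregation and the last gene found to carry the heat shock element among the promoters searched. It had 1021 to 2266 CPM (median 1338) in NI 8C and 207, 345, 232 and 638 CPM in NI 2C libraries, without overlap. It rose in both treatments (2.02 ± 0.47 in NI, 1.85 ± 0.38 in Ctrl, edgeR adjusted p = 0.000525 and 7.1e-05). Dnajb1, the heat-inducible partner of HSP70, fell in Ctrl with 18.3 to 159 CPM (median 103) at 8C and 31.4 to 794 CPM (median 326) at 2C (-1.67 ± 0.52, edgeR adjusted p = 0.00589). In NI its log2 fold change was 0.38 ± 0.59 (edgeR adjusted p = 0.613), and the difference between the treatments, -2.05 ± 0.80, did not pass (edgeR adjusted p = 0.142). The Ctrl 2C libraries fell apart for it, with 794, 326, 389.6 and 464 CPM in replicates 1, 3, 5 and 7 and 158, 50 and 31.4 CPM in replicates 2, 4 and 6. Without the first 4 of these libraries its log2 fold change in Ctrl was 0.19 ± 0.55 (edgeR adjusted p = 0.808). Dnajb4 stood likewise at 365, 270.5, 355 and 375 CPM in replicates 1, 3, 5 and 7 and 36.6, 35 and 17.7 CPM in replicates 2, 4 and 6, and it still fell without the high ones (-7.58 ± 0.93, edgeR adjusted p = 5.71e-08).

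DnaJ C proteins share little beyond the J domain. Dnajc2, which works with Hspa14 on the ribosome, had 215 to 806 CPM (median 295) in NI 8C and 32.6, 55.4, 24.4 and 88.9 CPM in NI 2C libraries, without overlap (2.90 ± 0.54, edgeR adjusted p = 3.53e-05). Dnajc19, of the motor that draws proteins into mitochondria, had 57.7 to 368 CPM (median 125) in NI 8C and 27.7, 2.88, 46.0 and 7.76 CPM in NI 2C libraries (3.01 ± 0.79, edgeR adjusted p = 0.00183). Its relative Dnajc15 rose by 2.54 ± 0.76 in NI and 3.5 ± 0.63 in Ctrl (edgeR adjusted p = 0.00524 and 1.19e-05). Dnajc24, which acts in making the diphthamide residue of elongation factor 2, had 25.6 to 160.3 CPM in NI 8C and 4.31, 3.6, 1.44 and 3.8 CPM in NI 2C libraries, without overlap (4.33 ± 0.79, edgeR adjusted p = 2.75e-05). Dnajc7, which binds both HSP70 and HSP90, rose in NI (2.66 ± 0.57, edgeR adjusted p = 0.000194) and did not pass in Ctrl (0.92 ± 0.44, edgeR adjusted p = 0.0657). Dnajc5b, a relative of the cysteine string protein, had 0 counts in the NI 8C and Ctrl 8C libraries, against 60 over the NI 2C and 404 over the Ctrl 2C libraries, so that it was at least 50.2-fold and 74.1-fold lower. Dnajc18 and Dnajc28 also fell in both treatments. Dnajc8, which is associated with splicing, did not pass (-0.36 ± 0.51 in NI, edgeR adjusted p = 0.577).

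Dnajc11, a mitochondrial protein tied to the cristae, was called in opposite directions. It had 13.7 to 114 CPM (median 88.6) in NI 8C and 9.23, 23.3, 34.5 and 8.75 CPM in NI 2C libraries (1.97 ± 0.73, edgeR adjusted p = 0.0232). It had 11.4 to 109.7 CPM (median 60.3) in Ctrl 8C and 18.6 to 360.1 CPM (median 206) in Ctrl 2C libraries (-1.51 ± 0.59, edgeR adjusted p = 0.0269). The stages overlapped in both treatments. The Ctrl 2C libraries again stood apart, with 206, 256, 304 and 360.1 CPM in replicates 1, 3, 5 and 7. Replicates 2, 4 and 6 had 28.3, 25.6 and 18.6 CPM, all within the range of the NI 2C libraries. The fall in Ctrl rested on the high ones: without them the log2 fold change was 1.2 ± 0.64 (edgeR adjusted p = 0.125), and without the low ones it was -2.35 ± 0.54 (edgeR adjusted p = 0.000293). The sets were chosen from these same libraries, and Dnajc11 itself splits along them. Leaving out the low ones therefore deepens the fall and narrows the spread by that choice, so these values describe the sets and are no test. The difference between the stage effects, Ctrl minus NI, was -3.47 ± 0.94 and did not pass (edgeR adjusted p = 0.0849). Over the 71 genes this interaction called 0 by edgeR, where 0% of all genes were called, and 12 at an unadjusted p under 0.05, where 20.4% of all genes stood. DESeq2 called 2, Dnajc11 and Dnajc5g, and limma-voom called 17, where they called 5.24% and 27.4% of all genes. Without Ctrl 2C replicate 6 edgeR called 3, Dnajb1, Dnajc11 and Dnajc5g, and 8.36% of all genes, with an adjusted p of 0.0117 for Dnajc11. Without Ctrl 2C replicate 2 or 4 it called Dnajc11, and 0.644% or 2.02% of all genes. Without replicates 2, 4 and 6 it called 14 members and 25.2% of all genes, and without replicates 1, 3, 5 and 7 it called 0 members and 0 genes.

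Several members work in the ER. Hspa5, the HSP70 of the ER, had 39.7 to 633 CPM (median 259) in NI 8C and 128, 262, 67.6 and 292 CPM in NI 2C libraries, with overlap (0.48 ± 0.64, edgeR adjusted p = 0.552). Per kilobase its ratio to Hspa8 was 0.0331 ± 0.0122 in NI 8C libraries (SD, n = 6) and 0.745 ± 0.269 in NI 2C libraries (SD, n = 4). Dnajc3, its partner and an inhibitor of the kinase PERK, did not pass (0.48 ± 0.45 in NI, 0.80 ± 0.38 in Ctrl, edgeR adjusted p = 0.38 and 0.0655). Of the 3 genes with the ER stress element, 0 were called by edgeR in NI, and Hsp90b1 fell in Ctrl. Dnajb9, a DnaJ that ER stress induces, had 159 to 951 CPM (median 363) in NI 8C and 68.3, 659, 108 and 2601 CPM in NI 2C libraries (-1.03 ± 0.68, edgeR adjusted p = 0.203), and without NI 2C replicates 1 and 3 it fell (-1.86, edgeR adjusted p = 0.0318). In Ctrl 2C it was low where Dnajc11 was high, with 110.4, 193, 156 and 58.7 CPM in replicates 1, 3, 5 and 7 and 873, 713 and 367 CPM in replicates 2, 4 and 6. Dnajb11, a further DnaJ of the ER, rose (1.53 ± 0.57 in NI, 1.5 ± 0.47 in Ctrl, edgeR adjusted p = 0.0249 and 0.00574), but not in NI without any one of 4 libraries. Dnajb14, of the ER membrane, fell in NI (-2.02 ± 0.60, edgeR adjusted p = 0.00544).

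Small heat shock proteins, which hold unfolded protein without ATP, were scarce apart from Hspb1. Hspb1 had 17.4 to 207 CPM (median 48.9) in NI 8C and 347, 171, 97.8 and 101 CPM in NI 2C libraries, with overlap (-1.13 ± 0.71, edgeR adjusted p = 0.182). In Ctrl its mean was higher at 8C, 74.6 CPM against 44.4 CPM at 2C, and it did not pass. Without Ctrl 2C replicate 4 it rose there (1.45, edgeR adjusted p = 0.0356), and it was also called without Ctrl 2C replicates 2, 4 and 6. The pseudogene Hsp25-ps1 shares 52.3% of the words of Hspb1, while 0% of them occur in other genes of the deposited table. Hspb11, a protein of ciliary transport, rose in Ctrl with 2.83 to 36 CPM at 8C and 0.720 to 5.89 CPM at 2C (2.14 ± 0.71, edgeR adjusted p = 0.00937), but not without Ctrl 8C replicate 6 (1.35, edgeR adjusted p = 0.0921). Hspb6 had 3 counts over the NI 8C and 22 over the NI 2C libraries, 18.4-fold lower with a 95% counting interval of 5.53 to 96.1. The 11 genes that did not pass the filter were Dnajb5, Dnajb7, Dnajb8, Dnajb13, Dnajc6, Dnajc16, Hspa12b, Hspb2, Hspb3, Hspb7 and Hspb9, with group means of at most 2.24 CPM. Dnajb8 had 0 counts in every library.

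Genes that work with these chaperones were counted from lists. Of 31 co-chaperones of HSP70 and HSP90, NI embryos had 15 higher and 2 lower at 8C, and Ctrl embryos had 17 higher and 6 lower. The higher ones are 48.4% and 54.8% of the list, where 18.5% and 22.5% of all genes rose, and the lower ones 6.45% and 19.4%, where 31.4% and 39% of all genes fell. The median log2 fold change was 1.39 in NI and 1.25 in Ctrl, beside -0.47 and -0.51 over all genes. Cdc37, which brings kinases to HSP90, averaged 161 ± 39.9 CPM in NI 8C and 19.7 ± 6.61 CPM in NI 2C libraries (SD, n = 6 and 4; log2 fold change 3.02 ± 0.54, edgeR adjusted p = 2.1e-05). Fkbp5, an immunophilin of HSP90, fell in NI (-3.77 ± 0.67) and Ctrl (-5.87 ± 0.69, edgeR adjusted p = 1.67e-05 and 5.97e-09). Of 10 genes of mitochondrial folding and proteolysis, 7 rose in NI and 6 in Ctrl and 0 fell by edgeR. The rises are 70% and 60% of the list, beside 18.5% and 22.5% of all genes. Among them was Grpel1, the exchange factor of Hspa9 (2.80 ± 0.56 in NI, 2.26 ± 0.44 in Ctrl). Of 10 tested prefoldin genes and CCT partners, 2 rose in NI and 6 in Ctrl, and the share in NI, 20%, was near the 18.5% of all genes. In Ctrl the share was 60%, beside 22.5% of all genes. Txndc9, a regulator of CCT, rose in both (1.27 ± 0.53 and 1.0 ± 0.44). Of 16 tested ER folding genes, NI embryos had 1 higher and 2 lower at 8C, and Ctrl embryos 2 higher and 4 lower. The higher ones are 6.25% and 12.5% of the list and the lower ones 12.5% and 25%. Each share lies below that of all genes given above. Of 5 tested heat shock factor genes, Hsf1 and Hsf5 fell in both treatments, and Hsf2 and Hsbp1 rose in Ctrl. The falls are 40% of the list in each treatment, beside 31.4% and 39% of all genes. The rises in Ctrl are 40%, beside 22.5%. Hsf1 averaged 15.2 ± 7.42 CPM in NI 8C and 52.9 ± 19.5 CPM in NI 2C libraries (SD, n = 6 and 4; log2 fold change -1.80 ± 0.46, edgeR adjusted p = 0.00137). Of 6 tested relatives outside the symbol rule, Sec63 fell in NI and Gak rose in Ctrl. Each is 16.7% of the list, beside 31.4% of all genes that fell in NI and 22.5% that rose in Ctrl.

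No chaperone was called by edgeR between treatments. At 2C it called 0 of 69 for KRAB against Ctrl, Ctrl against NI and KRAB against NI, and 0% of all 11799 genes. At an unadjusted p under 0.05 the members numbered 12, 15 and 1, and all genes 15.6%, 23.4% and 3.12%. DESeq2 called 1, 4 and 0 members, and 2.05%, 9.2% and 0% of all genes. Limma-voom with quality weights called 30, 32 and 0, but for KRAB against Ctrl it called 44.5% of all genes and for Ctrl against NI 50.8%. Dnajc11 had the smallest p in both of these. It had 17.4 to 70.8 CPM (median 24.0) in KRAB 2C, 18.6 to 360.1 CPM (median 206) in Ctrl 2C and 9.23, 23.3, 34.5 and 8.75 CPM in NI 2C libraries. The groups overlapped, with a log2 fold change of -2.08 ± 0.65 in KRAB against Ctrl and 2.83 ± 0.80 in Ctrl against NI, which share the Ctrl libraries (edgeR adjusted p = 0.222 and 0.121). Hspb1 had 84.4 to 299.9 CPM in KRAB 2C and 1.49 to 160.1 CPM in Ctrl 2C libraries, with overlap (2.11 ± 0.76, edgeR adjusted p = 0.237). For KRAB against NI the smallest p was that of Hspa1a, with 6.04 to 104 CPM in KRAB 2C and 3.69, 35.5, 8.63 and 14.5 CPM in NI 2C libraries (1.78 ± 0.70, edgeR adjusted p = 0.999). Without Ctrl 2C replicate 6, edgeR called 5 members for Ctrl against NI, where it called 11.6% of all genes: Dnajb1, Dnajc11 and Dnajc14 were higher and Dnajc4 and Hspe1 lower in Ctrl. Without Ctrl 2C replicates 2, 4 and 6 it called 26 members for KRAB against Ctrl and 24 for Ctrl against NI, where it called 37.3% and 42.3% of all genes. The 4 libraries kept there were chosen for their likeness over all genes, which narrows the spread behind these calls. Without replicates 1, 3, 5 and 7 it called 0 members and 0 genes in both comparisons.

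At 8C, edgeR called 0 of 58 for VP64 against Ctrl, Ctrl against NI and VP64 against NI, and 0% of all 9850 genes; DESeq2 and limma-voom called 0 members. Of all genes DESeq2 called 0.0102%, 0.0102% and 0.213%, and limma-voom 0%, 0% and 0.142%. At an unadjusted p under 0.05 the members numbered 4, 2 and 3, and all genes 3.99%, 4.36% and 7.17%. Hspa1a had 1.5 to 16.3 CPM (median 8.08) in VP64 8C and 0 to 6.03 CPM (median 0.747) in Ctrl 8C libraries, with overlap (2.05 ± 0.88, edgeR adjusted p = 0.999). Hspa8 had 1418 to 4774 CPM in VP64 8C and 2618 to 22298 CPM in Ctrl 8C libraries (-1.26 ± 0.58, edgeR adjusted p = 0.999). Dnajb14 had the smallest p for VP64 against NI, with 27.6 to 52.7 CPM in VP64 8C and 6.11 to 29.0 CPM in NI 8C libraries (1.05 ± 0.34, edgeR adjusted p = 0.617). The mean CCT level was 261 ± 48.8 CPM per kilobase in VP64 8C (SD, n = 7), 299 ± 144 in Ctrl 8C (SD, n = 6) and 271 ± 157 in NI 8C libraries (SD, n = 6). One VP64 8C library reached 352 CPM of cumulus and granulosa markers, where the median of the group was 1.43 CPM and 6 of 15 markers were at 0. The part of those cells was not tested.

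**Figure D5:**
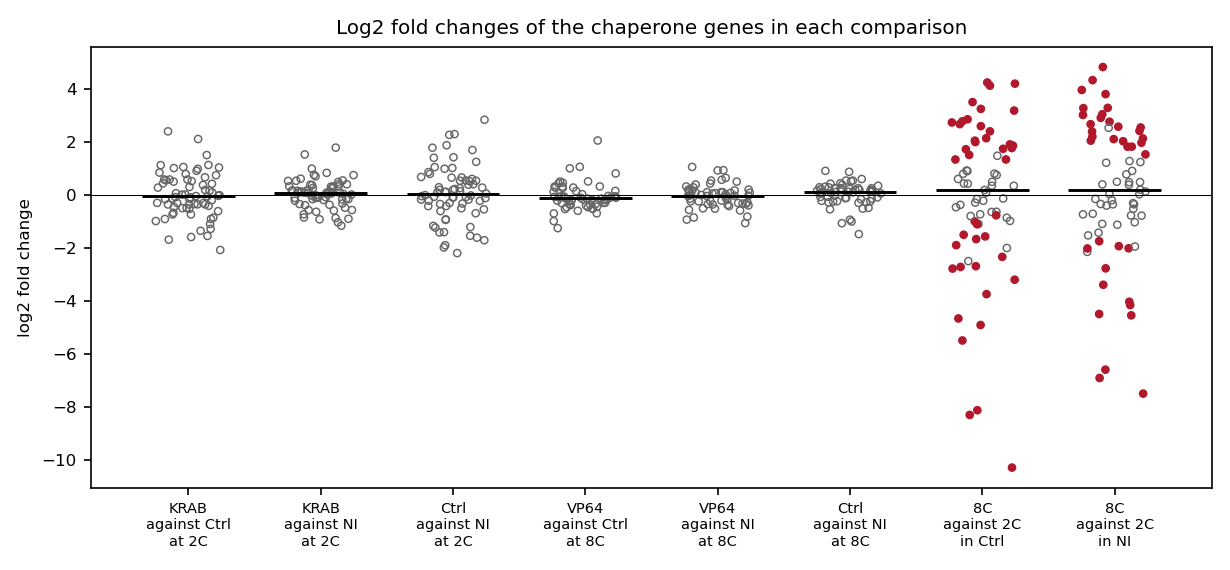
Log2 fold changes of the chaperone genes that passed the filter (points) in each comparison, with medians (lines); red points have an adjusted p under 0.05. Calls stand in the stage comparisons, 42 in Ctrl and 37 in NI, and the 6 comparisons between treatments hold 0 by edgeR with all libraries.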

How the data were processed

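The 36 libraries of pooled embryos were sequenced as RNA-seq. The authors deposited expected counts per gene symbol, for which the submitters' processing notes name RSEM, Bowtie2 and mm10. RSEM divides reads that match several genes. Neither the versions nor the annotation used are known from those notes.

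Expected counts were rounded and tested with edgeR 4.0.16 (R 4.3.3, limma 3.58.1; robust quasi-likelihood, TMM, filterByExpr at min.count 10 and min.total.count 15, Benjamini-Hochberg over all genes tested). Treatments were compared in a fit of each stage, and stages and their interaction in a fit of all 36 libraries, with no covariate, since the labels give no batch. The biological coefficient of variation was 0.738 at 2C, 0.609 at 8C and 0.703 over all. The scripts were tested on simulated counts with independent libraries and less spread than these data, which checks the code and not the calls. Levels are compared between genes per kilobase of merged GENCODE vM21 exons. The short-gene share covers the 22682 of 23845 genes with one exon length. Shared words are 31 bases long.

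The members and lists were chosen with earlier results of these data known. Named are, per class and stage comparison, up to 4 called members with a mean of at least 10 CPM, by fold change; the 2 most abundant per class; the CCT genes; the pairs Hspd1 and Hspe1, Hsp90aa1 and Hsp90ab1, and Hspa1a and Hspa1b; and, where 0 were called, the 3 smallest p-values. Other members were named after their values were seen. Alternatives were DESeq2 1.42.0, its size factors, limma-voom, no filter, only the groups compared, a fold threshold, members with mostly unique words, and leaving out libraries. Intervals and floors cover counting error only.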

Additional observations from a re-analysis of the deposited data

Results flagged for a closer look

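The named members were examined for libraries far from the rest of their group: in 30 of 252 groups the gap between the highest or lowest library and its neighbour was a large part of the group's range. Chance gives such a gap in about 1 in 20 groups.

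VP64 8C replicate 7 accounts for many of them. It was the lowest of its group for Cct2 (165 CPM), Cct3 (257), Cct4 (217), Cct6a (218), Cct7 (565), Cct8 (411), Tcp1 (266), Dnaja2 (76.4), Dnajb11 (72.2) and Hspb1 (50.9 CPM). It was the highest for Dnajc15 (1210 CPM), Dnajc19 (539), Dnajc2 (556) and Dnajc8 (716 CPM). Ctrl 8C replicate 6 was likewise the highest for Dnajc15 (1750 CPM) and Dnajc2 (717 CPM). Ctrl 2C replicate 6 was the lowest for Cct5 (19.6 CPM), Cct8 (69.7) and Dnaja2 (95.2 CPM). These are the libraries with the fewest genes detected in their groups.

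Hsph1 had one high library in each of 3 groups, at 129 CPM in Ctrl 8C replicate 5, 132 CPM in NI 8C replicate 3 and 204 CPM in Ctrl 2C replicate 2. Hspa12a stood high at 1.01 CPM in VP64 8C replicate 2 and 0.477 CPM in NI 8C replicate 4, and low at 2.14 CPM in Ctrl 2C replicate 4. Ctrl 8C replicate 3 was the highest for Cct8l1 (6.89 CPM) and Hspa4l (3.67 CPM). Single high values were those of Hsp90ab1 in VP64 8C replicate 6 (6340 CPM), Dnajb4 in Ctrl 8C replicate 1 (0.677 CPM) and Dnaja1 in NI 2C replicate 4 (428 CPM).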

How the results depend on the processing

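No paired analysis was possible because the replicate numbers follow accession order and pair nothing. For 8C against 2C in NI, leaving out 1 library at a time gave 34 to 39 members called (21 to 24 higher, 11 to 15 lower), and in Ctrl 39 to 44 (22 to 25 higher, 16 to 21 lower). The lower members in NI were 20 by limma-voom and 7 with only the groups compared, against 13. Over all genes the lower ones were 4574 of 13158 and 2597 of 10565, against 4129 of 13158. KRAB against Ctrl at 2C, with 0 by edgeR, gave 1 by DESeq2 and 30 by limma-voom. Ctrl against NI at 2C, also 0, gave 4 by DESeq2, 32 by limma-voom, and 0 to 5 with 1 library left out. The interaction gave 2, 17 and 0 to 3 in the same order. The settings that follow were chosen after seeing the data. Without Ctrl 2C replicates 2, 4 and 6, edgeR called 26, 24 and 14 in these 3 comparisons, and without replicates 1, 3, 5 and 7 it called 0 in each; the log2 fold change of Dnajb1 at 8C against 2C in Ctrl was then 0.19, against -1.67 with all libraries. Without the library with the fewest genes in each of VP64 8C, Ctrl 8C and Ctrl 2C the interaction called 1. The causes were not tested. There were 28 called in NI without NI 2C replicates 1 and 3, and 37 without NI 8C replicates 5 and 6. Over all genes the calls were then 5198 of 14203 and 6047 of 13132. DESeq2's size factors moved the members' stage changes by a median of -0.227 log2 in NI and -0.189 in Ctrl, and those of Ctrl against NI at 2C by -0.103; for the stage changes, signs turned for Dnaja3, Dnajc17 and Hsph1 in NI and for Dnajc9 and Hspa5 in Ctrl, with 0 of the called among them. At this spread, the 95% interval of a typical member's log2 fold change reached 1.29 to either side in NI and 1.07 in Ctrl.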
